A study of Mus musculus with 12 samples.

Results

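Intercalated cells of the kidney's connecting tubule and collecting duct secrete acid or base into the urine, and 10 of their acid-base genes were followed in mouse kidney RNA and in a mouse reference RNA. The genes were chosen by symbol: 4 proton pump subunits regarded as enriched in kidney (Atp6v1b1, Atp6v0a4, Atp6v1g3 and Atp6v0d2), 2 widely expressed subunits of the same pump (Atp6v1b2 and Atp6v1a), the anion exchangers Slc4a1 and Slc26a4, the carbonic anhydrase Car2 and the transcription factor Foxi1. A probe set carried a gene if the probe table gave that gene's symbol to it. Of the 10 genes, 9 were found, by 16 of the 45101 probe sets on the array, and the table used here lists no probe set for Atp6v1g3. The array as a whole named 18193 genes by a probe set of their own.

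The vacuolar proton pump has a peripheral part, V1, that splits ATP, and a membrane part, V0, that lets protons through; several subunits exist as a widely expressed form and a form found in few tissues. Carbonic anhydrase makes the protons and bicarbonate that the cell moves. In type A intercalated cells the pump sits in the apical membrane and Slc4a1 (the anion exchanger AE1, also a main membrane protein of red cells) takes bicarbonate out to the blood, while in type B and non-A, non-B cells Slc26a4 (pendrin) exchanges chloride for bicarbonate on the apical side.

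There were 4 groups of 3 arrays: kidney RNA from Ambion at an input of 10 ng, and Universal Mouse Reference RNA at 0.3, 3 and 10 ng. Such a reference RNA is a commercial pool made from cell lines, and the meaning of pRS, a code in all 12 titles, is unknown here. The labels give neither the strain, sex and age of the animals behind the kidney RNA nor whether the 3 arrays of a group came from separate RNA samples, so p-values measure the spread between these arrays, which may be technical. Kidney against the reference at 10 ng compares tissues at equal input; against 3 and 0.3 ng, tissue and input change together.

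Signals are the linear intensities deposited for each probe set, with a trimmed mean that averaged 500 over the arrays. A signal up to 33.65, the level of bacterial control probe sets, is called background here. The median signal lay between 56.6 and 59.6 on the kidney arrays, and between 47.5 and 53.2, 70.1 and 78.3, and 67.9 and 71.2 on the reference arrays at 0.3, 3 and 10 ng. The median SD of log2 signals among the arrays of a group was 0.256 in kidney, and 0.687, 0.308 and 0.242 in the reference at 0.3, 3 and 10 ng. The labelled tissue was looked at through proximal tubule markers, of which 10 of 10 were higher in kidney than in the reference at 10 ng (limma, adjusted p under 0.05). Their median log2 fold change was 8.53, or 7.51 with dim signals set to background. Except for Slc5a2 (188.6), their reference means at 10 ng lay under 65.4, the signal needed for testing. For these the filter left little room for any call but higher. Fold changes were fitted on the log2 of signal plus 3.9, which understates the change of dim genes, and a gene is called where its p-value, adjusted over all tested probe sets, is under 0.05. The number of arrays limits the precision.

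Of the 9 genes, 8 had a probe set bright enough to be tested, and all 8 differed between kidney and reference at 10 ng, 7 higher and 1 lower in kidney. Among them, Atp6v1b1, Slc4a1, Slc26a4 and Foxi1 were bright enough in kidney only, and at no reference input. For these the filter left little room for any call but higher. Over all 12820 genes tested the same rule called 62.7%, 27.1% higher and 35.6% lower. These are also the shares beside which the counts of listed genes at 10 ng are to be read. The median log2 fold change of the 8 genes was 4.53, or 2.77 once signals under background were set to it, and that of all genes was -0.19. The arrays of the 2 groups did not overlap for any of the 8, with 7 wholly above and 1 wholly below in kidney; of all genes, 31.7% lay wholly above and 41.5% wholly below. Each gene is represented by its probe set of highest mean. The choice mattered for 1 gene, Atp6v1b2, which was lower by that probe set and higher by its 3 others. Counted by probe sets, 14 of the 16 were tested, with 13 higher and 1 lower in kidney, against 60.1% of all tested probe sets called in either direction.

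**Figure D1:**
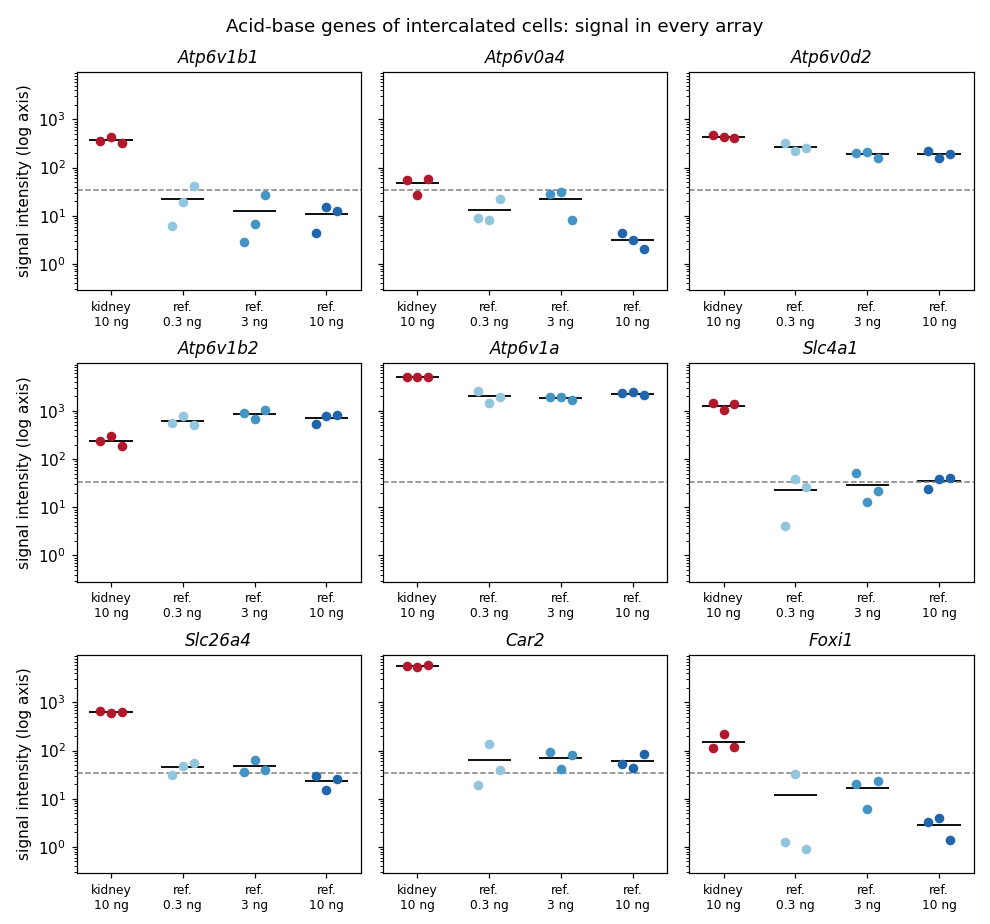
Signal intensity (log axis) of the representative probe set of 9 genes in every array, by group, with the group mean as a black line and background (33.65) as a dashed line. Kidney arrays lie above all reference arrays for 7 genes that were tested, Atp6v1b2 is lower in kidney by this probe set, and the untested Atp6v0a4 lies near background.

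Atp6v1b1, the B1 subunit of V1 in intercalated cells, whose loss in humans causes distal renal tubular acidosis with deafness, stood far above background in kidney and lay at or near it in the reference. Its signal was 351.4, 435.3 and 323.5 in kidney, against 4.3, 15.3 and 12.8 in the reference at 10 ng. The reference arrays read 6.1, 18.9 and 41.8 at 0.3 ng and 2.8, 6.9 and 27.2 at 3 ng, so that 1 of the 9 reference arrays, at 0.3 ng, passed background and none reached a kidney array. In kidney the gene was at least 10.9-fold higher than in the reference at 10 ng (log2 fold change 4.75 ± 0.35 SE, limma adjusted p = 0.000175), the bound being set by background.

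The start of Atp6v1b1 is shown because Foxi1, itself higher in kidney, is a forkhead factor known to switch on pump genes of intercalated cells. The 300 bases at chr6:83742767-83743066 (GRCm38.p6, RefSeq, plus strand), 250 before the gene's start and 50 after it, hold the forkhead core TGTTTA once. It is in capitals in the sequence, starting 98 bases before the gene's start.
Atp6v1b1 promoter: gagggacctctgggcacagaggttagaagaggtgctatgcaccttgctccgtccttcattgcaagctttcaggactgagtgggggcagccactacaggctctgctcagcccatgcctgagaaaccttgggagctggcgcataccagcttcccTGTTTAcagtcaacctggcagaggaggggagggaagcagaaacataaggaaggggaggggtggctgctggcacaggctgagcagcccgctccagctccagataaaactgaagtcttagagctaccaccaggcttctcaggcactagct
The letters searched were TGTTTA and its reverse complement TAAACA, which are 1 motif read on both strands. Of 6 members in the RefSeq promoter table (Atp6v1b1, Atp6v0a4, Atp6v1g3, Atp6v1a, Slc26a4 and Foxi1), 1 held it, and of all 32851 promoters of that length 13.4% did. A match describes the letters only.

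Atp6v0a4, the a4 subunit of V0 and the second pump gene of human distal renal tubular acidosis, was too dim to be tested. It read 55.7, 27.5 and 58.1 in kidney, against 4.5, 3.1 and 2.0 in the reference at 10 ng, with 2 of 3 kidney arrays above background. At 0.3 ng the reference read 9.1, 8.2 and 22.5, and at 3 ng it read 28.1, 30.6 and 8.3, so no reference array passed background, while 2 of those at 3 ng lay above the lowest kidney array.

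Atp6v0d2, the d2 subunit of V0, also known from osteoclasts, was present in both RNAs. Its signal was 484.5, 438.4 and 403.5 in kidney, against 320.2, 216.5 and 252.9 at 0.3 ng, 199.4, 213.6 and 156.9 at 3 ng and 218.7, 159.8 and 189.7 at 10 ng in the reference. Kidney arrays stood above every reference array, with log2 fold changes of 1.21 ± 0.17 against 10 ng (SE, limma adjusted p = 0.00166) and 1.21 ± 0.18 against 3 ng (adjusted p = 0.00246). Against 0.3 ng the difference, 0.75 ± 0.25, missed the threshold (adjusted p = 0.0625). A second probe set, 1444176_at, read 128.1, 161.7 and 299.6 in kidney and between 25.7 and 50.9 on the 9 reference arrays. By that probe set kidney was higher against all 3 inputs, by 1.96 ± 0.33 at 10 ng (limma adjusted p = 0.00361).
Osteoclast and macrophage markers were set beside it. Of 13 markers 7 were tested, 1 was higher in kidney (Acp5, an acid phosphatase, by 3.89) and 4 were lower (Cd68, Mmp9, Itgb3 and Adgre1, by -3.26, -2.83, -1.91 and -0.49 on the log2 scale; -1.24 for Itgb3 with dim signals set to background). The summed signal of the 13 ranged from 3011.4 to 4737.9 in kidney and from 5438.1 to 6180.1 in the reference at 10 ng. Means were above background in both RNAs for Csf1r (2006 in kidney and 1151 in the reference), Nfatc1 (339.8 and 453.2), Ctsk (39.9 and 48.8) and Tnfrsf11a (36.6 and 41.7), none of them called, and below it in both for Calcr, Ocstamp, Dcstamp and Oscar. The part of such cells in the Atp6v0d2 signal was not tested.

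Atp6v1b2 encodes B2, the widely expressed counterpart of B1, and its probe sets disagreed. Its probe set of highest mean, 1446465_at, read 234.6, 296.9 and 190.6 in kidney, against 572.3, 780.6 and 507.5 at 0.3 ng, 907.2, 675.8 and 1049.2 at 3 ng and 532.9, 793.6 and 826.8 at 10 ng in the reference. By it every kidney array lay below every reference array, and the log2 fold change at 10 ng was -1.56 ± 0.25 (SE, limma adjusted p = 0.00314). The probe set 1415814_at, which the probe table ties to a RefSeq mRNA, read 1169.5, 1259.6 and 1223.2 in kidney, against 159.3, 119.0 and 287.0 at 0.3 ng, 291.0, 317.3 and 245.3 at 3 ng and 361.5, 355.7 and 317.8 at 10 ng in the reference. By that one every kidney array lay above every reference array, and the log2 fold change at 10 ng was 1.81 ± 0.12 (limma adjusted p = 0.000129).
The other probe sets went with the RefSeq one: 1449649_at gave 2.13 ± 0.16 (limma adjusted p = 0.000175) and 1419883_s_at gave 1.70 ± 0.17 (adjusted p = 0.000553) at 10 ng. The reversed probe set is tied in the table to an expressed sequence tag, and which transcript it measures is not given in the sources used here. Against the reference at 0.3 and 3 ng the split was the same, with 1446465_at lower in kidney by -1.35 and -1.85 and the RefSeq probe set higher by 2.76 and 2.09 on the log2 scale.

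Atp6v1a encodes the widely expressed A subunit, which binds the ATP that V1 splits. Its signal was 4961.0, 5110.8 and 5062.8 in kidney, against 2626.8, 1493.7 and 1971.8 at 0.3 ng, 1910.2, 1972.1 and 1677.3 at 3 ng and 2343.2, 2445.7 and 2106.8 at 10 ng in the reference. All kidney arrays were above all reference arrays, and the log2 fold change at 10 ng was 1.14 ± 0.12 (SE, limma adjusted p = 0.000678). Its second probe set, 1450634_at, gave 1.58 ± 0.21 at 10 ng (limma adjusted p = 0.00155). Against 3 ng that probe set missed the threshold at 1.05 ± 0.40 (adjusted p = 0.065), where 1 reference array read 1316.4 and the others 641.3 and 459.1.

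**Figure D2:**
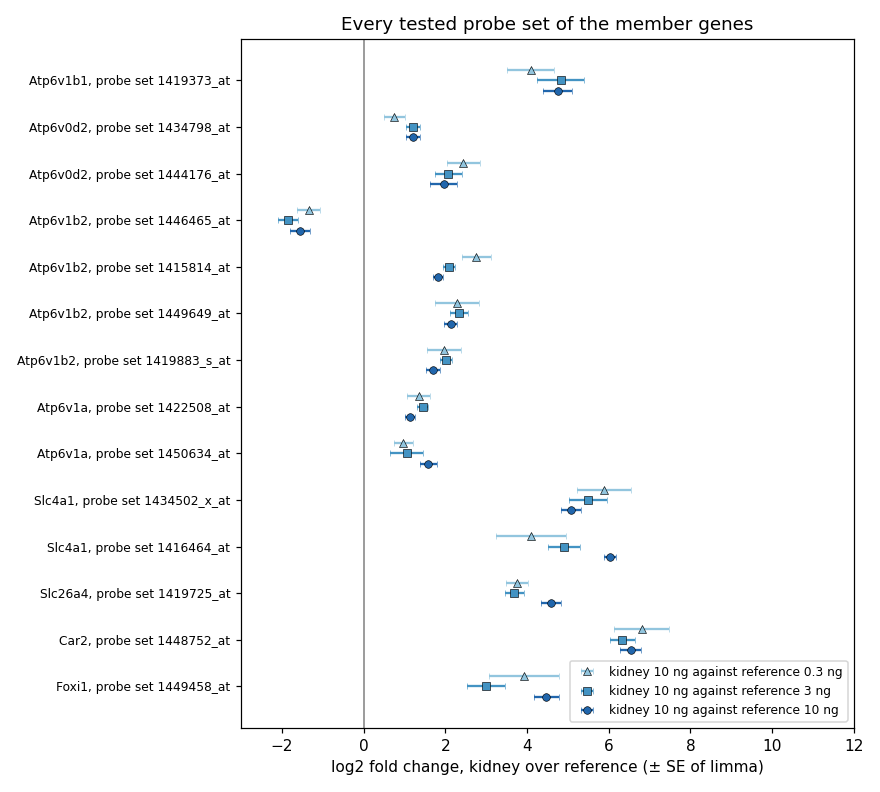
Log2 fold change of kidney over reference (± SE of limma) for each of the 14 tested probe sets of the genes, with 1 symbol for each reference input. All points lie right of 0 except those of Atp6v1b2 probe set 1446465_at, at -1.35, -1.85 and -1.56.

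Among the other subunits of the pump, several were also higher in kidney. At 10 ng, 15 other widely expressed subunits and accessory proteins were tested, and 8 were higher and 1 was lower in kidney. Over all genes 27.1% were higher and 35.6% lower. The median log2 fold change of the 15 was 0.42 beside -0.19 over all genes. The largest increases were those of Atp6v0e2 (a small V0 subunit, 2.21 ± 0.23 SE), Atp6v1e1 (the stalk subunit E1, 1.86 ± 0.12), Atp6v1h (the regulatory subunit H, 1.17 ± 0.12) and Atp6v1f (subunit F, 0.94 ± 0.12). The one that fell was Tcirg1, the a3 subunit of osteoclasts and lysosomes, with a signal of 329.6 ± 81.3 in kidney and 1133 ± 89.7 in the reference (SD, n = 3 each; limma adjusted p = 0.00102).
Of 3 tissue-restricted subunits, 1 was tested and was higher in kidney. Atp6v1c2, a form of subunit C known from kidney and lung, had a signal of 86.9 ± 21.6 in kidney and 1.93 ± 1.0 in the reference at 10 ng (SD, n = 3 each), at least 2.52-fold higher. It was bright enough to be tested through kidney, which left little room for any call but higher. The other 2, Atp6v1e2 and Atp6v1g2, were too dim to be tested, with kidney means of 15.8 and 36.4. These counts are relative to the scaling of the arrays. When the arrays were centred on their medians instead, all genes had a median of 0.07 at 10 ng, and 8 of 8 tested members were again called. The counts of the other subunits under that centring are not given here.

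**Figure D3:**
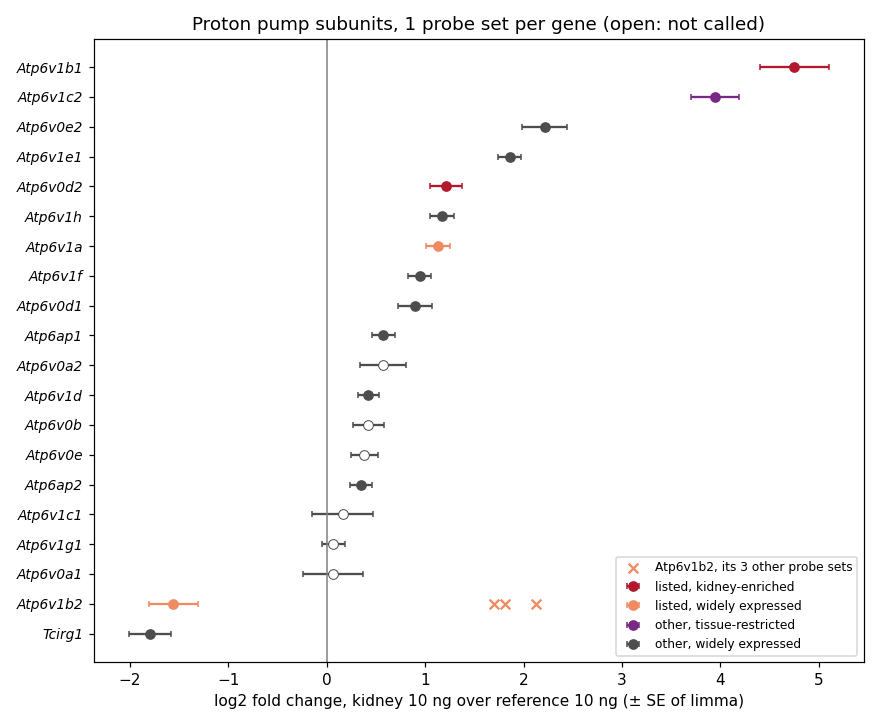
Log2 fold change of kidney over reference at 10 ng (± SE of limma) for 20 tested pump subunits and accessory proteins, filled where called. Atp6v1b1 (4.75) and Atp6v1c2 (3.94) have references below background on every array, so that their places are not firm and only their bounds (10.9-fold and 2.52-fold) hold. Tcirg1 (-1.80) and Atp6v1b2 (-1.56) lie left of 0, and the crosses at 1.70, 1.81 and 2.13 are the other probe sets of Atp6v1b2.

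The contrast of restricted with widely expressed forms was put to a test within each array, as the log2 ratio of the signals of a paralogue pair. The ratio itself compares different probes and has no meaning as a level; only its difference between groups is read. For Atp6v1b1 to Atp6v1b2 it was 0.58, 0.55 and 0.75 in kidney, against -6.03, -5.38 and -5.64 in the reference at 10 ng. The groups did not overlap, and the difference was 6.31 (two-sided exact permutation test p = 0.1, the smallest that 3 against 3 arrays allow; 0.15 adjusted over 3 pairs). With the RefSeq probe set of Atp6v1b2 the difference was 2.94 and again without overlap (exact p = 0.1). Atp6v1b1 was below background on every reference array at 10 ng, so the size of both differences rests on such signals. With signals under background set to it, the difference was 5.02 by the highest probe set of Atp6v1b2. The log2 fold changes at 10 ng were then 3.45 for Atp6v1b1 and 1.82 for the RefSeq probe set of Atp6v1b2. Against the reference arrays of all 3 inputs together the difference in the ratio was 6.14 (exact p = 0.00455, adjusted 0.0136). It was 2.33 with the RefSeq probe set (exact p = 0.00909, adjusted 0.0273). This pooling takes arrays of unlike input as alike, and kidney was at 10 ng only, so RNA and input are mixed in it. Most reference signals of Atp6v1b1 in the pool lay below background. By the RefSeq probe set, the separation of kidney from the 0.3 ng arrays rests on such signals. The SD of the ratio by the highest probe set was 0.33 in the reference at 10 ng and 0.97 over all inputs.
For Atp6v0a4 to Atp6v0a1, the a4 and the widely expressed a1 subunit, the ratio was -1.74, -2.05 and -1.98 in kidney, against -3.97, -4.91 and -5.09 in the reference at 10 ng. The difference of 2.73 (exact permutation p = 0.1) fell to 0.44 (exact p = 0.2) once signals under background were set to it. For Atp6v0d2 to Atp6v0d1 the groups overlapped, with -1.29, -1.74 and -1.92 in kidney, against -1.60, -2.42 and -1.87 in the reference at 10 ng. The difference was 0.31 (exact permutation p = 0.5), and with the second probe sets of both genes it was 1.06 (exact p = 0.1). Against the reference arrays of all 3 inputs together, the difference was 1.57 for the Atp6v0a4 pair (exact permutation p = 0.0909, adjusted 0.136) and 0.02 for the Atp6v0d2 pair (exact p = 0.973), and neither passed the threshold. Atp6v0d1 itself was higher in kidney by 0.90 ± 0.17 on the log2 scale (SE, limma adjusted p = 0.00624).

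**Figure D4:**
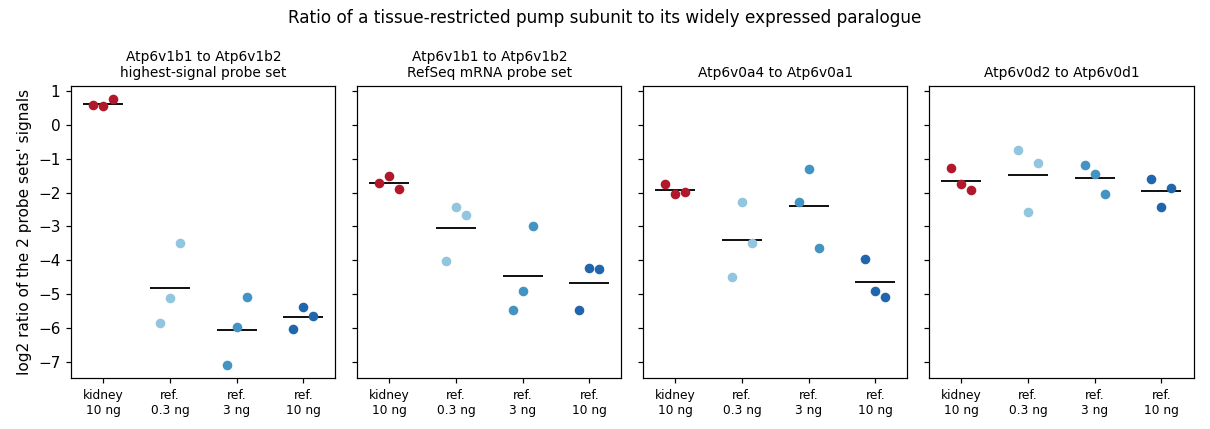
Log2 ratio of the signals of a restricted pump subunit and its widely expressed paralogue in every array, by group, with group means as lines. Only differences between groups within a panel can be read. Both Atp6v1b1 panels show the kidney arrays above all reference arrays, while the Atp6v0d2 panel shows overlapping groups. Atp6v1b1 lies below background on most reference arrays. In the RefSeq panel the separation from the 0.3 ng arrays rests on such signals.

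Slc4a1, the anion exchanger AE1, was bright in kidney and near background in the reference. Its probe set of highest mean, 1434502_x_at, read 1440.9, 1036.4 and 1386.0 in kidney, against 4.0, 38.1 and 26.9 at 0.3 ng, 51.3, 12.6 and 21.4 at 3 ng and 24.2, 38.8 and 41.0 at 10 ng in the reference. The groups were far apart at every input, with a log2 fold change at 10 ng of 5.08 ± 0.24 (SE, limma adjusted p = 4.24e-05). In the naming of these arrays the ending x marks a probe set with probes that may also match other sequences. The RefSeq mRNA probe set, 1416464_at, read 611.4, 560.2 and 482.0 in kidney, against 4.9, 4.5 and 4.3 in the reference at 10 ng, at least 16.3-fold higher. Another probe set, 1431743_a_at, was not tested: it read 23.7, 23.6 and 15.7 in kidney, all below background, against 50, 47.6 and 25.0 at 0.3 ng, 19.4, 66.6 and 43.7 at 3 ng and 1.7 to 26.2 at 10 ng in the reference. By this probe set kidney lay wholly below the reference at 0.3 ng and overlapped it at 3 and 10 ng.

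Because Slc4a1 and Car2 are also red cell genes, erythroid markers were set beside them. Of 12 with a probe set, 4 were tested: Hbb-b2 (a beta globin, at least 259.9-fold) and Alas2 (the erythroid enzyme of haem synthesis, at least 7.06-fold) were higher in kidney, and Rhd (a blood group protein, at least 2.42-fold) and Hba-a2 (an alpha globin, by -0.84 on the log2 scale) were lower. Globin genes have near-identical copies, so a globin signal cannot be tied to 1 copy with certainty. The summed signal of the 12 ranged from 9644.6 to 9891.9 in kidney and from 1145.3 to 1272.6 in the reference at 10 ng, and Hbb-b2 alone averaged 8746 ± 109.6 in kidney (SD, n = 3). Of those not tested, Klf1 and Sptb had means of 66.0 ± 26.1 and 60.1 ± 7.39 in kidney, above background, and of 29.9 ± 29.5 and 32.3 ± 12 in the reference (SD, n = 3 each), and Epor averaged 33.6 in kidney and 34.3 in the reference. Hba-a1, Epb42, Rhag, Ank1 and Gata1 had means below background in both RNAs. The part of red cell RNA in the Slc4a1 and Car2 signals was not tested.

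Slc26a4, pendrin, the exchanger of base-secreting cells, read 661.7, 611.2 and 639.8 in kidney, against 31.6, 47.5 and 54.9 at 0.3 ng, 36.7, 64.5 and 40.2 at 3 ng and 29.8, 14.9 and 26.4 at 10 ng in the reference. The kidney arrays were within a narrow range and above all others, and the reference at 10 ng lay wholly below background. Kidney was at least 18.9-fold higher than the reference at 10 ng (log2 fold change 4.58 ± 0.24 SE, limma adjusted p = 5.91e-05).

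Car2, the cytosolic carbonic anhydrase of intercalated and proximal tubule cells, had the largest fitted difference of the 8 genes. It read 5776.0, 5515.4 and 6053.2 in kidney, against 18.9, 136.1 and 39.0 at 0.3 ng, 93.5, 40.9 and 80.0 at 3 ng and 52.8, 43.2 and 86.2 at 10 ng in the reference. The log2 fold change at 10 ng was 6.54 ± 0.26 (SE, limma adjusted p = 2.58e-05), with no overlap. The reference arrays at 0.3 ng spread widely, from below background to well above it.

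Foxi1, the forkhead factor needed for intercalated cells to form, read 113.6, 221.8 and 119.7 in kidney, against 1.3, 33.5 and 0.9 at 0.3 ng, 20.2, 6.1 and 23.1 at 3 ng and 3.3, 4.0 and 1.4 at 10 ng in the reference. Every kidney array was above background and every reference array below it. Kidney was at least 4.29-fold higher at each input, and the log2 fold change was 4.47 ± 0.31 at 10 ng (SE, limma adjusted p = 0.000141). In whole-tissue RNA, fewer cells of a type and less RNA per cell cannot be told apart.

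Against the reference at 3 ng, 7 of the 8 tested genes were higher and 1 was lower in kidney, where 57.8% of all genes were called, 26.4% higher and 31.4% lower. Against 0.3 ng, 6 were higher and 1 was lower, where 37.6% of all genes were called, 20.9% higher and 16.7% lower. The gene not called was Atp6v0d2. The 3 comparisons share the kidney arrays. Side by side, the log2 fold changes against 0.3, 3 and 10 ng were 6.81, 6.34 and 6.54 for Car2, 5.88, 5.49 and 5.08 for Slc4a1, and 4.09, 4.82 and 4.75 for Atp6v1b1. They were 3.75, 3.69 and 4.58 for Slc26a4, 3.93, 2.99 and 4.47 for Foxi1, and 1.35, 1.45 and 1.14 for Atp6v1a. Those of Slc4a1, Atp6v1b1, Slc26a4 and Foxi1 rest in part or wholly on reference signals below background. That of Car2 against 0.3 ng does so in part, by 1 array. For these genes, differences across inputs are therefore not read. The medians of the 8 were 3.84, 3.34 and 4.53, and those of all genes were 0.05, -0.17 and -0.19.
The calls against 0.3 ng fell to 4 genes without kidney replicate 1 or without kidney replicate 3, and to 5 without kidney replicate 2.

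Between reference inputs none of the 8 genes was called by limma. At 3 against 10 ng, 0 were called, where 0% of all genes were called. Foxi1 and Slc26a4, 2 of the 8, had an unadjusted limma p under 0.05, for which the share over all genes is not given. Their means of 16.5 and 47.1 at 3 ng stood against 2.90 and 23.7 at 10 ng. Both were below background on every array at 10 ng, and Foxi1 was so at 3 ng as well. At 0.3 against 10 ng and at 0.3 against 3 ng, 0 were called and 0 had an unadjusted p under 0.05, where 0.554% and 0.172% of all genes were called. The smallest adjusted p of the 8 genes was 0.391, 0.332 and 0.529 in these 3 comparisons, and no alternative setting called any of them. In order of level, then, no step between neighbouring reference inputs of a gene passed the test, which does not show that the inputs gave equal signals. Kidney stood above them for 7 of the 8 genes and below them for Atp6v1b2 by its highest probe set.

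Most other tested genes of intercalated cells were higher in kidney as well. Of 16 listed, 15 had a probe set and 11 were tested. At 10 ng 10 were higher and none was lower, beside 27.1% and 35.6% of all genes. The median log2 fold change of the 11 was 3.11, or 2.16 with dim signals set to background. On every reference array at 10 ng Rhcg, Rhbg, Bsnd, Kit, Slc4a9 and Oxgr1 were below background, which left little room for a lower call. Of those not tested, Dmrt2 and Atp12a had higher kidney means (65.2 and 22.3, against 34.2 and 1.27 in the reference). Slc26a7 and Hmx2 had lower ones (26.3 and 49.4, against 44.9 and 72.5). Named by their fitted change, which has no firm order where the reference is below background, were Rhcg, Rhbg, Tfcp2l1 and Bsnd. Rhcg and Rhbg, ammonia transporters, had kidney means of 328.1 ± 90.0 and 273.9 ± 52.2 and reference means of 3.13 ± 0.80 and 7.37 ± 2.27 (SD, n = 3 each). They were at least 9.50-fold and 8.04-fold higher in kidney. Tfcp2l1, a transcription factor of the collecting duct, averaged 5710 ± 526.5 in kidney and 301.7 ± 30.1 in the reference, an 18.9-fold difference. Bsnd, the barttin subunit of chloride channels, was at least 3.83-fold higher. The tested gene without a call was Hepacam2, an adhesion molecule, at 0.68 ± 0.31 (SE, limma adjusted p = 0.106).

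Of 30 other acid-base transporters and carbonic anhydrases with a probe set, 19 were tested. At 10 ng 12 were higher and 4 were lower in kidney, beside 27.1% and 35.6% of all genes, with a median of 2.80. Slc9a3, Car4, Slc26a1 and Slc9a2 were below background on every reference array at 10 ng, and Car6 on every kidney array. For these the filter left little room for a call in the other direction. By fitted change the named increases were those of Slc9a3 (the sodium-proton exchanger of the proximal tubule, at least 90.3-fold), Car4 (a membrane-bound carbonic anhydrase, at least 75.3-fold), Car15 (another membrane-bound one, log2 fold change 6.57 ± 0.58 SE) and Slc9a2 (a sodium-proton exchanger, at least 11.4-fold). Lower in kidney were Car6 (the secreted carbonic anhydrase of saliva, at least 6.08-fold lower), Car11 (a form without enzyme activity, -2.54 ± 0.56, or -2.00 with dim signals set to background), Car13 (a cytosolic form, -1.48 ± 0.51) and Slc4a2 (the widely expressed exchanger AE2, -1.30 ± 0.29).
Principal cells, the neighbours of intercalated cells in the collecting duct, were represented by 10 markers. Of these 9 were higher and 1 was lower in kidney at 10 ng, beside the same shares of all genes. Their median was 3.43, or 2.96 with dim signals set to background. Except for Aqp3 (80.3) and Gata3 (146), their reference means at 10 ng lay under 65.4, the signal needed for testing. For these the filter left little room for a lower call. Aqp4 (a water channel), Fxyd4 (a sodium pump regulator), Hsd11b2 (which inactivates glucocorticoids) and Avpr2 (the vasopressin receptor) were higher in kidney. With dim signals set to background their folds were 119.8 (a lower bound), 121.4, 64.2 and 7.02. Gata3, a transcription factor, was lower by -1.57 on the log2 scale. Of the 10 proximal tubule markers, those named by their fitted change were Slc27a2 (a fatty acid transporter, at least 348.2-fold higher in kidney), Cyp4b1 (a cytochrome P450, at least 242.8-fold), Slc34a1 (the phosphate transporter, 289.3-fold with dim signals set to background) and Miox (the inositol oxygenase, at least 359.8-fold).

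The genes whose profile over the 12 arrays was nearest to that of Atp6v1b1, floored at background and centred, were Hsf2bp, Fam163a and Flvcr2, out of 12819 genes. Their root mean square log2 differences from it were 0.05, 0.11 and 0.11, with kidney means of 391.5, 354.2 and 401.1. Their means in the reference at 10 ng, 14.1, 7.7 and 8.9, were below background. The floor gave the reference arrays of Atp6v1b1 the same value, except 1 at 0.3 ng, so these small differences rest mainly on the kidney signals. Nearest to Atp6v1b2 by its highest probe set were Srek1, Kin and Vrk1, at 0.20, 0.24 and 0.24, all with lower means in kidney (592.8, 351.7 and 141.4) than in the reference at 10 ng (1439, 1005 and 376.9). Nearest to its RefSeq probe set were Oat, Mettl26 and Neurl4, at 0.20, 0.20 and 0.21, all with higher means in kidney. The 12 arrays hold 2 RNAs only, at 4 combinations of RNA and input.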

How the data were processed

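RNA of mouse kidney and of a mouse reference was hybridised to 12 arrays, 3 for each of 4 groups given by the titles. The table the authors deposited holds a linear intensity for each probe set on each array, and its 2% trimmed mean averaged 500 over the arrays. No source used here names the array type, the software, the summary of probes, the background correction or the amplification steps behind these arrays.

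Intensities were put on the log2 scale with a pseudocount of 3.9 (their 10th percentile above 0). After 64 control probe sets were left out, probe sets were tested whose highest group mean of log2 values exceeded the 40th percentile (a signal of 65.4), which kept 27022. Background, 33.65, is the 95th percentile of the signals of 27 Bacillus controls. Symbols came from the probe table, with 34945 probe sets naming 1 gene, 932 several and 9160 none; for members they were as in RefSeq's table of GRCm38.p6. Folds against a group wholly below background are bounds: the brighter group's mean (of log2 signals) over background. Other folds said to have dim signals set to background raise them to it in both groups.

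Each comparison was fitted with limma 3.58.1 in R 4.3.3 (lmFit, eBayes) on its 2 groups without covariates, although the spread at 0.3 ng was wider. P-values are two-sided and adjusted by Benjamini-Hochberg over all 27022 probe sets, with a threshold of 0.05. The fit was tested on simulated data. Named list genes are up to 4 called members per direction with the largest change; genes of like pattern are the 3 nearest. Members, lists and tests were chosen with earlier results of these data known. The RefSeq mRNA probe set was added after the disagreement of probe sets was seen. Alternatives changed the pseudocount, floor, filter, scaling, samples in the fit, array weights, block, probe set and arrays.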

Additional observations from a re-analysis of the deposited data

How the results depend on the processing

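At 10 ng all tested members kept their call and direction under every alternative that could test them, except that Atp6v1b2 turned to 1.81 with its second probe set, which is also its RefSeq mRNA probe set; that probe set gave 2.09 against 3 ng and 2.76 against 0.3 ng. Leaving out 1 array gave 8 called members at 10 and 3 ng and 4 to 8 at 0.3 ng, where leaving out kidney replicate 1 or 3 gave 4, beside 7 with all arrays. The cause was not tested. Over all genes, leaving out a kidney array took the 0.3 ng count to between 2922 and 2948, beside 4815. The filter on the mean of all arrays leaves Foxi1 untested; without a filter Atp6v0a4 is also called at 10 ng. The difference in the Atp6v1b1 to Atp6v1b2 ratio was 6.14 (exact permutation test, adjusted p = 0.0136) against all reference inputs. With the RefSeq probe set as well it was 2.33 (adjusted p = 0.0273). There 12 arrays allow smaller p-values than 6, but RNA and input are mixed, and most reference signals of Atp6v1b1 lie below background. At 10 ng, by the highest probe set, the difference was 4.68 to 6.69 under other pseudocounts and 5.02 with signals raised to background.

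Centring each array on its median moved the split of called genes at 10 ng to 4254 higher and 3444 lower, beside 3475 and 4568; at 3 ng it gave 4360 and 2684, beside 3390 and 4020. Arrays with the same replicate number did not deviate together (correlations from -0.063 to 0.016), so the numbers do not pair them. With the replicate number as a block, 8, 8 and 6 members were called against 10, 3 and 0.3 ng, the count of all genes at 0.3 ng was 3421, and the exact sign-flip test of the Atp6v1b1 ratio, which cannot go below 0.25, gave p = 0.25. Signals near background limit Atp6v0a4, Foxi1 and the reference values of most members. At 10 ng the folds of Atp6v1b1, Atp6v0a4, Slc26a4 and Foxi1 are bounds, and that of Slc4a1 by its highest probe set rests in part on such signals.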
